A study of Rattus norvegicus with 10 samples.

Results

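The genes that build, crosslink and remodel the extracellular matrix of the rat jejunum were followed over 4 dose groups of A-998679. They were chosen by gene symbol alone, as every gene on the array named as a collagen chain (Col), a laminin chain (Lama, Lamb, Lamc), a matrix metalloproteinase (Mmp), a tissue inhibitor of metalloproteinases (Timp) or an Adamts protease, together with Fn1, Dcn, Lum, Bgn, Sparc, Fbn1, Eln, Postn and Lox. This gave 91 genes of the 13813 named on the array, measured by 128 probe sets, which are groups of short probes for a transcript. Each gene is given through its brightest probe set, and 62 of the 91 were bright enough to be tested.

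A-998679, a compound made to act on nicotinic acetylcholine receptors, was given to male Sprague Dawley rats once daily by mouth for 5 days, and the jejunum was frozen after the rats had fasted overnight. Affymetrix RAE230 2.0 arrays, 1 per rat, were available for 3 rats on vehicle (0.2% hydroxypropylmethylcellulose at 10 ml/kg), 2 rats at 30 mg/kg, 3 rats at 100 mg/kg and 2 rats at 200 mg/kg of A-998679 per day. Another 30 mg/kg rat is not analysed here. The study assigned 3 rats to each group, so the 200 mg/kg group is also incomplete here. The rats' age was not given in the sources used here, and the tissue was whole jejunum with no sorting of cells, so that fewer cells of a type and less RNA per cell cannot be told apart.

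The wall of the jejunum rests on 2 kinds of matrix. Interstitial matrix, made mostly by fibroblasts and smooth muscle cells, holds fibrils of collagen types I, III and V, which proteoglycans such as decorin space and lysyl oxidase crosslinks. Basement membranes under the epithelium and around muscle cells, nerves and vessels are sheets of type IV collagen and laminin. Metalloproteinases and Adamts proteases cut these proteins, and the Timp proteins inhibit them.

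Values are log2 intensities, so that a difference of 1 is a doubling. Array medians lay between 5.86 and 5.90, and the number of arrays limits the precision. Of the epithelial markers 14 were on the array and all 14 were bright enough to be tested (Krt19 and Cldn3 among them). So were 1 of 7 pancreatic acinar and 10 of 11 hepatocyte markers on the array. Since most hepatocyte markers passed too, these counts cannot check the tissue label. Vehicle rat 1 stood apart from the other vehicle rats, with the lowest of the 3 vehicle values in 39 of the 62 tested genes and in 9 of the 9 glycoproteins, proteoglycans and Lox. Over 16 smooth muscle markers its mean distance from the vehicle average was -0.46 on the log2 scale, against 0.22 and 0.24 in the other vehicle rats. Counts over the 62 genes, tests of named matrix genes and medians of other lists that rest on the vehicle group are therefore also given without this rat. It was singled out by its values in these same genes. Calls and adjusted p values without it show how far results rest on it and add no support. Mmp10, Col11a2 and Mmp8 were bright enough to be tested only through groups where they are high, and the counts over the 62 genes include them.

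Matrix genes were lower at 200 mg/kg than in vehicle rats in 48 of the 62 tested genes, with a median log2 difference of -0.36, beside -0.02 over all genes tested. In 30 of the 62 (48.4%) both 200 mg/kg arrays lay below all 3 vehicle arrays, where 13.1% of all probe sets did so, and in 3 (4.84%) both lay above, where 12.4% of all did. No matrix gene passed an adjusted p of 0.05 in limma, a linear model with shared spread, where 0.0226% of all probe sets passed. At an unadjusted p of 0.05, 27 of the 62 were lower and 3 were higher, beside 6.68% and 5.73% of all probe sets. Mmp10, bright enough only through groups where it is high, is among the 3 genes above without overlap and the 3 higher genes. Without vehicle rat 1, 13 genes were called lower and none higher (Col1a1, Col1a2, Col3a1, Col5a2, Col14a1, Lamb2, Dcn, Fn1, Lox, Lum, Postn, Sparc and Timp2), when 2.27% of all probe sets were called, and the median was -0.36. The number of genes with both 200 mg/kg arrays below the vehicle arrays was then 36, when 27.1% of all probe sets lay so. Leaving out vehicle rat 2 or vehicle rat 3 in place of vehicle rat 1 called 0 of the 62. Of all probe sets 0% and 0.0113% were then called.

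At 100 mg/kg the same 62 genes were split, 30 above vehicle and 32 below it, with a median of -0.03, as over all genes (-0.02). All 3 arrays lay above all vehicle arrays in 12 genes (19.4%, with 11.5% of all probe sets) and below them in 9 genes (14.5%, with 13.5% of all). None was called (0.0113% of all probe sets were, 0.00565% in each direction), and 10 higher and 10 lower genes passed an unadjusted p of 0.05, beside 8.6% and 9.43% of all. Mmp10 and Col11a2 are among the 12 genes above and the 10 higher genes. Without vehicle rat 1, 27 genes were above vehicle and 35 below (median -0.07). limma then called Col18a1 higher, when 12.5% of all probe sets were called. It called 11 genes lower (Col1a2, Col3a1, Col5a2, Col8a2, Col14a1, Lamb2, Dcn, Fn1, Lum, Postn and Timp2). Mmp10 also passed the threshold, but it was bright enough only through the groups where it is high, so its difference is a description with no test.

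The comparisons of each dose with vehicle share the 3 vehicle arrays. At 30 mg/kg 35 genes were above vehicle and 27 below, with a median of 0.04 (-0.01 over all genes). None was called (0.0113% of all), with 0 higher and 3 lower genes at an unadjusted p of 0.05 (1.82% and 2.84% of all), and the arrays did not overlap in 5 genes above (8.06%, beside 7.39%) and 4 below vehicle (6.45%, beside 9.37%). The balance turned without vehicle rat 1, with 26 genes above and 36 below, a median of -0.07, and arrays that did not overlap in 6 genes above and 11 below, where 15.8% and 17.8% of all probe sets lay so.

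The differences of 200 from 100 mg/kg rest on no vehicle array but share the treated arrays with the comparisons above. Their limma p values rest on the vehicle arrays too, since the spread was estimated over all 10 arrays. Of the 62 genes 50 were lower at 200 mg/kg, with a median of -0.34 (0.01 over all genes), and in 37 (59.7%) both 200 mg/kg arrays lay below all 3 of the 100 mg/kg arrays, where 12.9% of all probe sets did so. In 3 genes (Col4a5, Col9a2 and Adamts1) they lay above, where 14% of all did. None was called (0.0226% of all probe sets were), and 18 lower genes and 1 higher gene passed an unadjusted p of 0.05, beside 3.35% and 2.71% of all. Between 100 and 30 mg/kg Col18a1 was called higher, where 0.559% of all probe sets were called, 0.305% higher and 0.254% lower, and the other 61 tested genes were not called. Arrays did not overlap in 15 genes above and 17 below (24.2% and 27.4%), where 24% and 23.9% of all probe sets lay so, and 8 higher and 9 lower genes passed an unadjusted p of 0.05, beside 9.65% and 9.53% of all, so that these shares were close to those over all probe sets. In this comparison 9 genes were called without vehicle rat 1, when 5.73% of all probe sets were. Among the 9 is Mmp10, which was bright enough only through the groups where it is high, so that its call is no test.

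A test over all 4 dose groups at once called none (0.0453% of all), with a lowest adjusted p of 0.0776, and 31 of the 62 had an unadjusted p of up to 0.05, beside 15.6% of all. This test called 13 genes without vehicle rat 1, when 5.71% of all probe sets were called. The study detected array changes with the error model of Rosetta Resolver, and its methods name a standard t-test for other statistics. A standard t-test on the arrays called none after adjustment in any of the 5 comparisons. At an unadjusted p of 0.05 it passed 2, 13 and 14 of the 62 genes at 30, 100 and 200 mg/kg against vehicle, beside 3.5%, 13.3% and 6.45% of all probe sets.

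**Figure D1:**
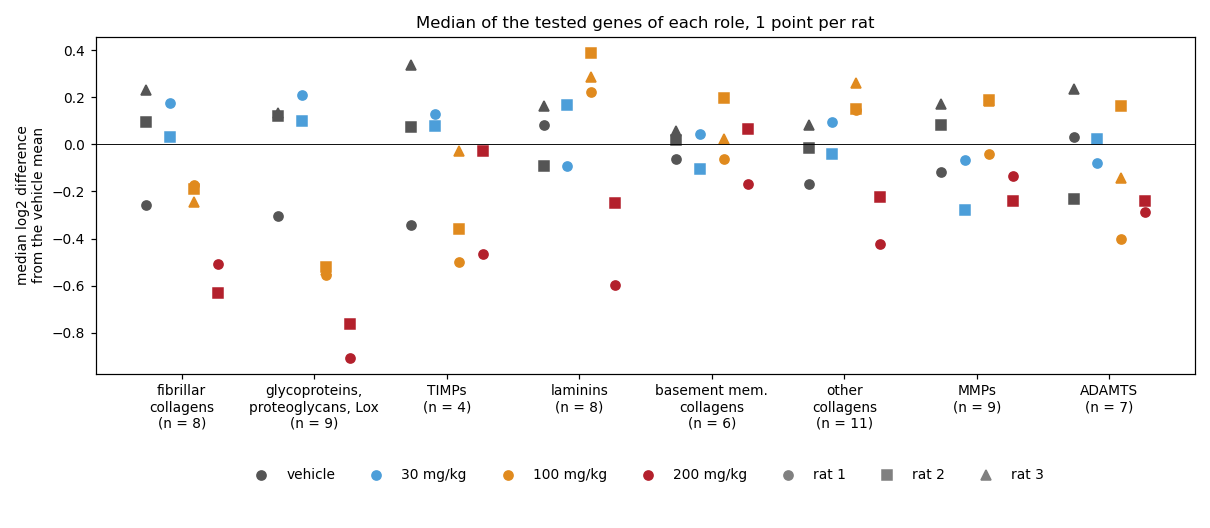
The median log2 difference from the vehicle mean over the tested genes of each role is plotted on the y axis for each rat, with roles along the x axis and colours for dose. Both 200 mg/kg rats lie below every other rat for the fibrillar collagens and for the glycoproteins, proteoglycans and Lox, where the 100 mg/kg rats lie between -0.56 and -0.52, and the laminins of the 3 rats at 100 mg/kg lie between 0.22 and 0.39.

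Fibrillar collagens, which carry the tensile strength of the submucosa, were lower at 200 mg/kg than in vehicle rats in 6 of 8 tested genes, with a median of -0.53. Col3a1 had log2 intensities of 10.96, 11.41 and 11.59 in vehicle rats, 11.47 and 11.22 at 30 mg/kg, 10.96, 10.97 and 10.85 at 100 mg/kg, and 10.46 and 10.53 at 200 mg/kg. Both 200 mg/kg rats were below all other rats, and the 100 mg/kg rats overlapped with vehicle rat 1. Col5a2 had log2 intensities of 8.20, 8.76 and 8.88 in vehicle rats, 8.81 and 8.78 at 30 mg/kg, 8.38, 8.43 and 8.18 at 100 mg/kg, and 7.93 and 8.05 at 200 mg/kg. The order of the groups was the same for this chain of type V collagen, which takes part in starting fibrils. Against vehicle, the log2 difference at 200 mg/kg was -0.83 ± 0.19 (SE, adjusted p = 0.202) for Col3a1 and -0.62 ± 0.20 (SE, adjusted p = 0.299) for Col5a2. It was -1.10 ± 0.32 (SE, adjusted p = 0.262) for Col1a1 and -0.94 ± 0.32 (SE, adjusted p = 0.306) for Col1a2, the chains of type I collagen. Both 200 mg/kg rats were below all vehicle rats for these 4 genes (50%), where 13.1% of all probe sets lay so. They were so for none of the other 4 (Col5a1, Col11a2, Col24a1 and Col27a1), which ranged from -0.44 to 0.41. Without vehicle rat 1 the difference was -1.01 (adjusted p = 0.0362) for Col3a1, -1.44 (0.0362) for Col1a1, -1.26 (0.0436) for Col1a2 and -0.83 (0.0422) for Col5a2. Separate tested probe sets gave -1.10 for Col1a1 (adjusted p = 0.228), -0.93 for Col1a2 (0.29) and -0.72 for Col5a2 (0.199) at 200 mg/kg against vehicle. That of Col5a1 gave -0.92 (adjusted p = 0.174), where its brightest gave -0.12.

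Proteoglycans, glycoproteins and the crosslinking enzyme Lox were lower at 200 mg/kg in 9 of 9 genes, with a median of -0.86. Both 200 mg/kg rats were below all vehicle rats in 8 of them (88.9%), all but Eln (elastin), where 13.1% of all probe sets lay so. Lox had log2 intensities of 5.99, 6.30 and 6.21 in vehicle rats, 6.29 and 6.01 at 30 mg/kg, 5.91, 5.88 and 5.64 at 100 mg/kg, and 5.07 and 5.07 at 200 mg/kg. Lox, which crosslinks collagen and elastin, was thus lower in both 200 mg/kg rats than in all 8 other rats. Dcn had log2 intensities of 9.44, 9.92 and 9.87 in vehicle rats, 9.91 and 9.94 at 30 mg/kg, 9.08, 9.22 and 9.09 at 100 mg/kg, and 8.77 and 8.99 at 200 mg/kg. For decorin, which binds and spaces collagen fibrils, both the 100 and the 200 mg/kg rats were below all vehicle and 30 mg/kg rats. Sparc had log2 intensities of 9.78, 10.38 and 10.24 in vehicle rats, 10.24 and 9.99 at 30 mg/kg, 9.58, 9.60 and 9.91 at 100 mg/kg, and 9.08 and 9.52 at 200 mg/kg. Sparc, a collagen-binding secreted protein, was lower in the 200 mg/kg rats than in all vehicle rats.

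None of the differences from vehicle passed the test with all arrays. The log2 difference at 200 mg/kg against vehicle was -1.10 ± 0.16 (SE, adjusted p = 0.12) for Lox, -0.86 ± 0.17 (SE, adjusted p = 0.177) for Dcn and -0.84 ± 0.23 (SE, adjusted p = 0.236) for Sparc. The other genes of this group had the same sign. Fibronectin (Fn1), an adhesive glycoprotein, differed by -0.93 ± 0.23 (SE, adjusted p = 0.228), the fibril-binding proteoglycan lumican (Lum) by -0.87 ± 0.28 (SE, adjusted p = 0.292), periostin (Postn) by -0.78 ± 0.21 (SE, adjusted p = 0.237) and the microfibril protein fibrillin (Fbn1) by -0.72 ± 0.18 (SE, adjusted p = 0.228). Biglycan (Bgn), a relative of decorin, differed by -1.86 ± 0.43 (SE, adjusted p = 0.202), with 200 mg/kg rats at 6.68 and 5.29, and the difference was -1.16 without 200 mg/kg rat 2 and -2.55 without 200 mg/kg rat 1. The adjusted p without vehicle rat 1 was 0.0347 for Lox, 0.0347 for Dcn, 0.0347 for Fn1, 0.0423 for Lum, 0.0436 for Postn and 0.05 for Sparc, and Bgn differed by -1.88 (adjusted p = 0.0794) and Fbn1 by -0.81 (0.0625). With all arrays the pattern at 100 mg/kg was weaker and not in every gene. There 7 of the 9 were below vehicle, with a median of -0.47, and Dcn differed by -0.61 ± 0.15 (SE, adjusted p = 0.157), while Fbn1 and Eln stood at 0.12 and 0.06. Between 200 and 100 mg/kg Lox differed by -0.74 ± 0.16 (SE, adjusted p = 0.28) and Fbn1 by -0.83 ± 0.18 (SE, adjusted p = 0.28), and all 9 genes were lower at 200 mg/kg. At 100 against 30 mg/kg Dcn differed by -0.79 ± 0.17 (SE, adjusted p = 0.0764) and Fn1 by -0.96 ± 0.23 (SE, adjusted p = 0.0949).

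**Figure D2:**
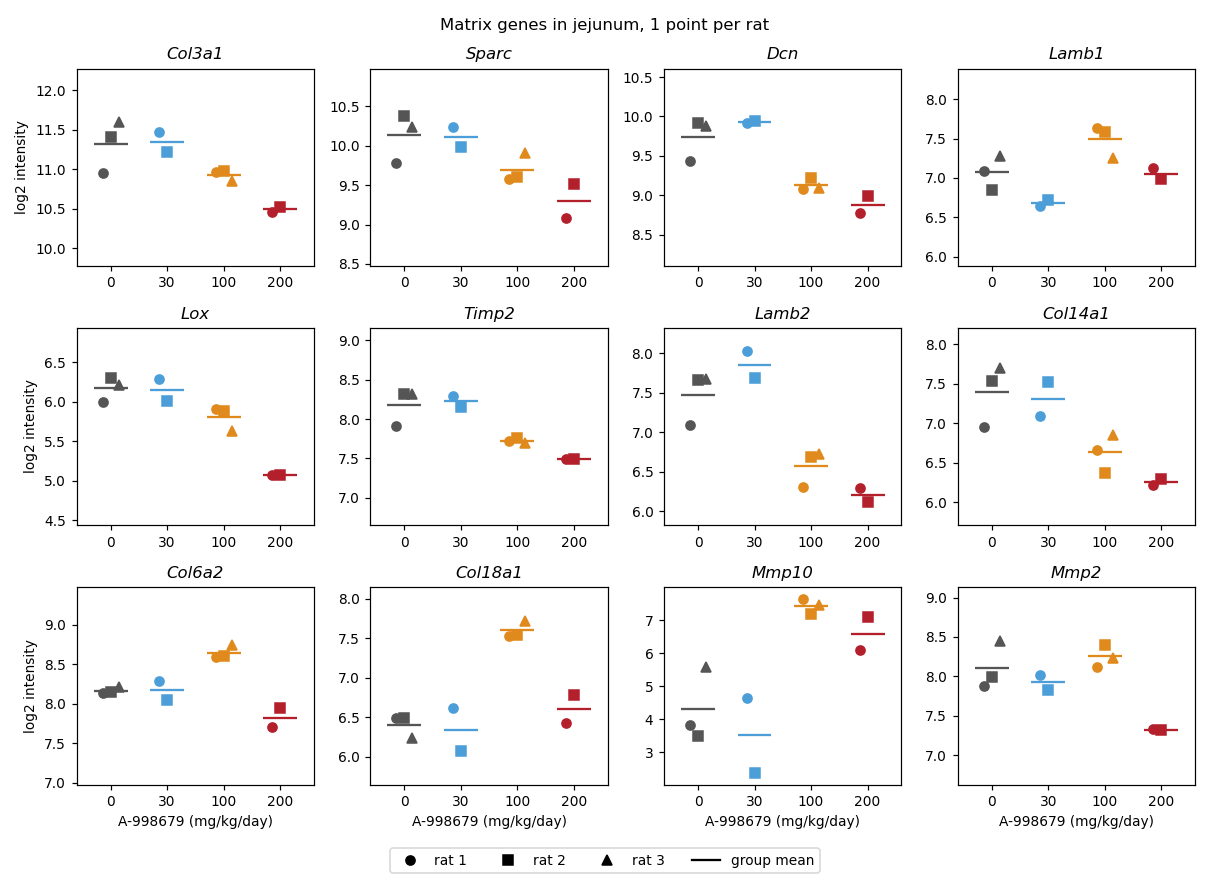
Log2 intensity of 12 matrix genes is plotted against daily dose, with 1 point per rat (symbols for rat number) and a line at each group mean, and each panel has its own y scale. Lox, Dcn, Timp2, Lamb2 and Col14a1 have their lowest values at 200 mg/kg, Col18a1 stands between 7.53 and 7.72 at 100 mg/kg alone, and Mmp10 is above 6 in all rats at 100 and 200 mg/kg.

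Basement membrane collagens had the gene that passed the test. Col18a1 had log2 intensities of 6.49, 6.48 and 6.23 in vehicle rats, 6.61 and 6.07 at 30 mg/kg, 7.53, 7.54 and 7.72 at 100 mg/kg, and 6.43 and 6.78 at 200 mg/kg. Col18a1, the core of a heparan sulphate proteoglycan of basement membranes whose end fragment is endostatin, was thus higher in all 3 rats at 100 mg/kg than in all 7 other rats, which overlapped. It rose at 100 mg/kg against 30 mg/kg, by 1.26 ± 0.20 (SE, adjusted p = 0.0409), a 2.40-fold difference. A separate tested probe set gave 2.09 in limma and was not called (adjusted p = 0.068). Against vehicle that probe set stood at -0.94 at 30 mg/kg and -0.33 at 200 mg/kg, where the brightest gave -0.06 and 0.20. For the brightest probe set the difference at 100 mg/kg against vehicle was 1.20 ± 0.18 (SE, adjusted p = 0.115), which became 1.24 (adjusted p = 0.0192) without vehicle rat 1. The 200 mg/kg rats differed from the 100 mg/kg rats by -0.99 ± 0.20 (SE, adjusted p = 0.267). The call between 100 and 30 mg/kg was lost when any of 8 of the 10 arrays was left out, all but vehicle rats 1 and 3, with adjusted p values from 0.0578 to 0.209, while the difference stayed between 0.99 and 1.53.

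The promoter of Col18a1 is shown as that of the gene that passed, in 250 bases of RefSeq (build GRCr8) up to the base before the gene's start, at chr20:11473395-11473644 on the plus strand. Neither TATAAA nor the letters CCAAT, each on either strand, nor TGANTCA is present, so it has no capitals.
Col18a1: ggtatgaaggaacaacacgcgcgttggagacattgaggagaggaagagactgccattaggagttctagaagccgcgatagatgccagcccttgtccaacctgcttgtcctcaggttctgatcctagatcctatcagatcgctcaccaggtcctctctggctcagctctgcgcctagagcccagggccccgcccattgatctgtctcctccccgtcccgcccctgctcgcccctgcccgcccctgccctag

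Col4a1 had log2 intensities of 8.98, 9.23 and 9.44 in vehicle rats, 9.29 and 9.10 at 30 mg/kg, 9.12, 9.15 and 8.96 at 100 mg/kg, and 8.74 and 8.74 at 200 mg/kg. Col4a5 had log2 intensities of 6.85, 7.0 and 7.08 in vehicle rats, 7.05 and 7.68 at 30 mg/kg, 7.51, 7.39 and 7.53 at 100 mg/kg, and 7.64 and 7.93 at 200 mg/kg. Col4a1, of the chain pair found in nearly all basement membranes, was lower in the 200 mg/kg rats than in all others, whereas Col4a5, of the more restricted chains, was higher in the 200 mg/kg rats than in all vehicle rats and all 100 mg/kg rats. Set against vehicle, the 200 mg/kg rats differed by -0.48 ± 0.16 (SE, adjusted p = 0.308) for Col4a1, -0.37 ± 0.16 (SE, adjusted p = 0.404) for Col4a2 and 0.81 ± 0.20 (SE, adjusted p = 0.225) for Col4a5. Leaving out vehicle rat 1, these were -0.60 (adjusted p = 0.0725) for Col4a1, -0.43 (0.163) for Col4a2 and 0.75 (0.0976) for Col4a5. Over the 5 comparisons Col4a1 and Col4a2 differed from each other by at most 0.15 on the log2 scale. The 2 genes lie head to head, and the 76 bases between their RefSeq starts (GRCr8, chr16:84885521-84885596, written on the plus strand) are shown because both genes are read outwards from them. None of these 3 motifs is present there, though the 250-base window of each gene holds CCAAT.
Col4a1 and Col4a2: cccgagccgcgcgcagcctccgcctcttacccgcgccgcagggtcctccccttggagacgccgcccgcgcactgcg

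Laminins, the trimers that start basement membranes, were higher at 100 mg/kg than in vehicle rats in 6 of 8 tested genes (median 0.33) and lower at 200 mg/kg in 7 of 8 (median -0.38). At 200 mg/kg against 100 mg/kg 8 of 8 were lower, with a median of -0.43. Lamb2 had log2 intensities of 7.09, 7.66 and 7.67 in vehicle rats, 8.03 and 7.68 at 30 mg/kg, 6.30, 6.68 and 6.72 at 100 mg/kg, and 6.29 and 6.12 at 200 mg/kg. Lamb2, the beta 2 chain found in basement membranes of muscle and nerve, was lower in all 100 and 200 mg/kg rats than in all vehicle and 30 mg/kg rats. Lamb1 had log2 intensities of 7.08, 6.85 and 7.28 in vehicle rats, 6.65 and 6.72 at 30 mg/kg, 7.63, 7.59 and 7.25 at 100 mg/kg, and 7.12 and 6.98 at 200 mg/kg. The beta 1 chain had its highest values in 2 of the 3 rats at 100 mg/kg and its lowest at 30 mg/kg. Lamc1 had log2 intensities of 8.17, 8.22 and 8.38 in vehicle rats, 8.42 and 8.34 at 30 mg/kg, 8.30, 8.36 and 8.20 at 100 mg/kg, and 7.94 and 7.81 at 200 mg/kg. Lamc1, the gamma 1 chain of most laminin trimers, was lowest at 200 mg/kg, with no overlap with any other group.

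For Lamb2 the difference from vehicle at 100 mg/kg was -0.90 ± 0.20 (SE, adjusted p = 0.146), and that at 200 mg/kg was -1.27 ± 0.23 (SE, adjusted p = 0.162). The 100 mg/kg rats differed from the 30 mg/kg rats by -1.29 ± 0.23 (SE, adjusted p = 0.0539). Without vehicle rat 1 it was -1.09 (adjusted p = 0.0192) at 100 mg/kg against vehicle, -1.46 (0.0347) at 200 mg/kg against vehicle and -1.29 (0.0146) at 100 against 30 mg/kg. Lamc1 differed by -0.38 ± 0.13 (SE, adjusted p = 0.309) at 200 mg/kg against vehicle, or -0.43 (0.117) without that rat, while its other tested probe set gave 0.13 (adjusted p = 0.875), opposite in sign. Lamb1 differed by 0.81 ± 0.18 (SE, adjusted p = 0.0768) at 100 against 30 mg/kg. Of the alpha chains, Lama3 (epithelial) stood at 0.73 and Lama5 (epithelial and vascular) at 0.65 at 100 mg/kg against vehicle, while Lama4, of vessels and muscle, stood at -0.16. These chains stood at -0.37 (Lama3), 0.40 (Lama5) and -0.59 (Lama4) at 200 mg/kg against vehicle.

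The other collagens were lower at 200 mg/kg than in vehicle rats in 9 of 11 tested genes (median -0.34) and higher at 100 mg/kg in 7 of 11 (median 0.22). Col6a3 had log2 intensities of 9.03, 9.35 and 9.44 in vehicle rats, 9.54 and 9.08 at 30 mg/kg, 9.05, 9.10 and 9.08 at 100 mg/kg, and 8.79 and 8.35 at 200 mg/kg. Col6a2 had log2 intensities of 8.14, 8.14 and 8.21 in vehicle rats, 8.29 and 8.05 at 30 mg/kg, 8.59, 8.60 and 8.75 at 100 mg/kg, and 7.70 and 7.94 at 200 mg/kg. Col14a1 had log2 intensities of 6.95, 7.54 and 7.70 in vehicle rats, 7.10 and 7.53 at 30 mg/kg, 6.67, 6.37 and 6.86 at 100 mg/kg, and 6.22 and 6.29 at 200 mg/kg. Col6a2 and Col6a3 encode chains of the beaded filaments of type VI collagen, and both were lowest at 200 mg/kg, but Col6a2 was higher in the 100 mg/kg rats than in all other rats while Col6a3 was not. Col14a1, a collagen that decorates fibrils, was lower in all 100 and 200 mg/kg rats than in all vehicle rats. The 200 mg/kg rats differed from vehicle rats by -0.70 ± 0.20 (SE, adjusted p = 0.259) for Col6a3 and -1.14 ± 0.25 (SE, adjusted p = 0.194) for Col14a1, and without vehicle rat 1 by -0.82 (adjusted p = 0.0722) and -1.36 (0.0362). A separate probe set of Col6a3 gave 0.26 there (adjusted p = 0.823), opposite in sign to the brightest. Col6a2 differed by 0.48 ± 0.13 (SE, adjusted p = 0.168) at 100 mg/kg against vehicle, or 0.47 (0.066) without vehicle rat 1, and by -0.83 ± 0.14 (SE, adjusted p = 0.155) at 200 against 100 mg/kg. Col17a1, the hemidesmosome collagen of epithelia, was at -0.43 in 200 mg/kg rat 1 and between 5.75 and 6.62 in the other 9 rats, and the mean difference of -3.47 at 200 mg/kg against vehicle rests on that 1 array.

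Matrix metalloproteinases differed in direction, from -0.78 (Mmp2) to 2.30 (Mmp10) at 200 mg/kg against vehicle among 9 tested genes. Mmp10 had log2 intensities of 3.82, 3.48 and 5.59 in vehicle rats, 4.64 and 2.38 at 30 mg/kg, 7.64, 7.19 and 7.46 at 100 mg/kg, and 6.09 and 7.11 at 200 mg/kg. Mmp10, or stromelysin-2, which cuts many matrix proteins and can activate other metalloproteinases, was higher in all 5 rats at 100 and 200 mg/kg than in all 5 other rats, where the values were spread and 30 mg/kg rat 2 was under the 10th percentile of all values (3.18). It passed the filter only through those 5 rats, since its means of 4.30 in vehicle rats and 3.51 at 30 mg/kg lie under the lowest mean kept (4.89), so its differences are a description with no test. Against vehicle the log2 difference was 3.13 in the 100 mg/kg group and 2.30 in the 200 mg/kg group. From the 30 mg/kg rats the 100 mg/kg rats differed by 3.92, or 3.52 with low values raised to that percentile. Leaving out vehicle rat 1 gave 2.89 at 100 mg/kg and 2.06 at 200 mg/kg against vehicle. Mmp2 had log2 intensities of 7.87, 7.99 and 8.44 in vehicle rats, 8.02 and 7.83 at 30 mg/kg, 8.12, 8.40 and 8.24 at 100 mg/kg, and 7.33 and 7.31 at 200 mg/kg. Mmp14 had log2 intensities of 8.59, 9.21 and 9.15 in vehicle rats, 9.0 and 8.60 at 30 mg/kg, 8.94, 8.24 and 8.85 at 100 mg/kg, and 7.99 and 8.48 at 200 mg/kg. Mmp2, a gelatinase that Mmp14 activates at the cell surface, was lower in both 200 mg/kg rats than in all 8 other rats, and differed by -0.78 ± 0.19 (SE, adjusted p = 0.221) from vehicle rats and by -0.93 ± 0.19 (SE, adjusted p = 0.272) from 100 mg/kg rats. Mmp14 differed by -0.75 ± 0.29 (SE, adjusted p = 0.345) at 200 mg/kg against vehicle. These 2 genes differed by -0.90 (adjusted p = 0.0536) and -0.95 (0.0999) without vehicle rat 1. Their other tested probe sets gave smaller differences, of -0.31 from vehicle rats and -0.28 from 100 mg/kg rats for Mmp2, and of -0.15 from vehicle rats for Mmp14. Mmp7, an epithelial matrilysin, measured 8.41 and 6.19 in 200 mg/kg rats, and between 5.39 and 7.18 in the others.

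The promoter of Mmp10, of these genes the one with the largest difference from vehicle at 100 mg/kg, is shown in 250 bases of RefSeq (GRCr8) up to the base before its start, at chr8:12974457-12974706 on the plus strand. Capitals mark TATAAA on either strand, of which 2 opposite matches overlap, and TGANTCA, the letters bound by AP-1 factors, and TGAGTCA begins 61 bases and the nearest TATAAA 33 bases before the start.
Mmp10: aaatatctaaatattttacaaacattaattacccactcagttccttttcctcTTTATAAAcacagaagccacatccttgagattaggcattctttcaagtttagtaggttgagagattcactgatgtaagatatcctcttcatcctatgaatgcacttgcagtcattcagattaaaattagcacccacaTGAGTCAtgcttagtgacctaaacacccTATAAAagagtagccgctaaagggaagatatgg
Of the 91 genes 65 have a promoter in the table used, and TGANTCA is in 7 of these windows (Mmp3, Mmp7, Mmp10, Mmp12, Mmp13, Col6a1 and Lama3), where 6.36% of 27457 genes of the table have it. Of the 65 windows 15 hold TATAAA (13.1% of all genes) and 19 hold CCAAT (34.3% of all), each on either strand. A match is a description of letters and shows no binding.

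Timp genes and Adamts proteases were tested in 4 of 4 and 7 of 12 cases. Timp2 had log2 intensities of 7.91, 8.32 and 8.32 in vehicle rats, 8.30 and 8.15 at 30 mg/kg, 7.72, 7.75 and 7.70 at 100 mg/kg, and 7.49 and 7.49 at 200 mg/kg. Timp3 had log2 intensities of 7.21, 8.11 and 8.35 in vehicle rats, 8.33 and 7.96 at 30 mg/kg, 7.25, 7.48 and 7.72 at 100 mg/kg, and 6.98 and 7.77 at 200 mg/kg. Timp2, which inhibits metalloproteinases and takes part in the activation of Mmp2, was lower in all 100 and 200 mg/kg rats than in all vehicle and 30 mg/kg rats, whereas Timp3, which binds to the matrix, overlapped between all dose groups and vehicle. For Timp2 the difference from vehicle at 100 mg/kg was -0.46 ± 0.14 (SE, adjusted p = 0.2), which became -0.59 (adjusted p = 0.0243) without vehicle rat 1. That at 200 mg/kg was -0.69 ± 0.16 (SE, adjusted p = 0.197), which became -0.83 (0.0362). Timp1 and Timp4 stood at 0.26 and 0.07 at 200 mg/kg. Adamts7 had log2 intensities of 6.62, 5.97 and 6.06 in vehicle rats, 6.51 and 6.24 at 30 mg/kg, 6.43, 7.31 and 7.43 at 100 mg/kg, and 5.81 and 6.04 at 200 mg/kg. Adamts8 had log2 intensities of 5.78, 5.56 and 6.02 in vehicle rats, 5.33 and 5.17 at 30 mg/kg, 5.18, 5.58 and 5.03 at 100 mg/kg, and 5.16 and 4.87 at 200 mg/kg. Adamts7 was highest in 100 mg/kg rats 2 and 3, with 0.84 ± 0.28 (SE, adjusted p = 0.218) at 100 mg/kg against vehicle (1.04, adjusted p = 0.0538, without vehicle rat 1) and -1.13 ± 0.32 (SE, adjusted p = 0.511) at 200 against 100 mg/kg. Adamts8 was lower in both 200 mg/kg rats than in all vehicle rats, and so it was in both 30 mg/kg rats, with a difference of -0.54 at 30 mg/kg. The difference at 200 mg/kg was -0.77 ± 0.21 (SE, adjusted p = 0.237), or -0.77 (0.106) without vehicle rat 1. The remaining tested members of the family ranged from -0.36 (Adamts4) to 0.20 (Adamts10, with 1 blank 200 mg/kg array) at 200 mg/kg.

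**Figure D3:**
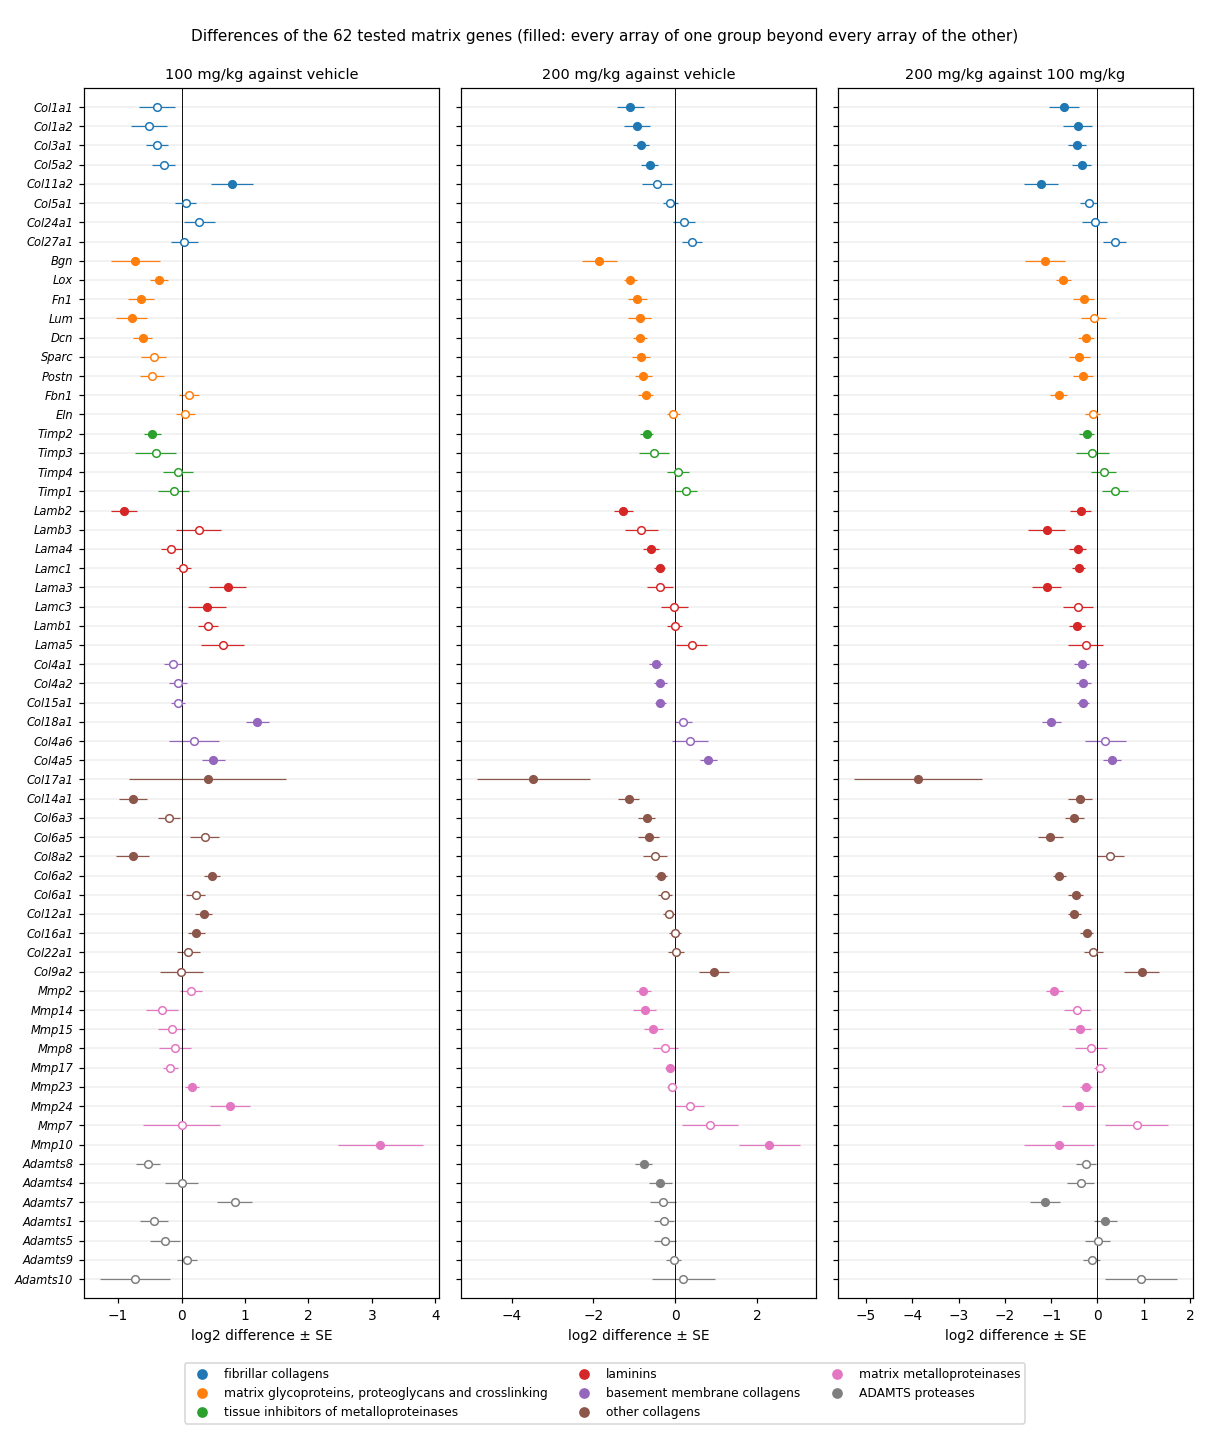
The log2 difference ± SE of each of the 62 tested genes is shown on the x axis for 100 mg/kg against vehicle, 200 mg/kg against vehicle and 200 against 100 mg/kg, with genes down the y axis coloured by role, and filled points mark genes whose arrays do not overlap. Filled points number 21, 33 and 40, and in the panels with 200 mg/kg most lie left of 0. Of all probe sets 11.5% lay above and 13.5% below without overlap in the first panel. These shares were 12.4% and 13.1% in the second panel, and 14% and 12.9% in the third.

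Members that were not tested numbered 29, of which 13 had a value on every array, 14 on some and 2 (Col9a1 and Col20a1) on none. They were Col11a1, Col2a1 and Col5a3 of the fibrillar collagens, Col4a4, Lama1 and Lama2 of the basement membrane genes, Col10a1, Col13a1, Col20a1, Col23a1, Col25a1, Col26a1, Col6a6, Col7a1, Col8a1, Col9a1 and Col9a3 of the other collagens, Mmp11, Mmp12, Mmp13, Mmp16, Mmp19, Mmp3 and Mmp9 of the metalloproteinases, and Adamts12, Adamts15, Adamts16, Adamts19 and Adamts6 of the Adamts family. With every probe set tested that had enough values, the median difference at 200 mg/kg against vehicle was -0.28 and at 200 against 100 mg/kg -0.25. Of 20 further tested probe sets of these genes, 15 had the sign of the brightest at 200 mg/kg against vehicle and 17 at 200 against 100 mg/kg.

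Neighbouring lists of matrix biology were compared next. Of 24 genes of other matrix proteins with values, 21 were lower at 200 mg/kg than in vehicle rats, with a median of -0.48 (-0.02 over all genes), and 18 of 25 were lower at 100 mg/kg, with a median of -0.30. Mfap4, of elastic microfibrils, differed by -1.30 ± 0.19 (SE, adjusted p = 0.121), Fmod, a proteoglycan of collagen fibrils, by -1.02 ± 0.22 (SE, adjusted p = 0.194) and tenascin C (Tnc) by -0.99 ± 0.17 (SE, adjusted p = 0.162) at 200 mg/kg. Spon1, a secreted adhesion protein, rose at 100 against 30 mg/kg, by 1.61 ± 0.21 (SE, adjusted p = 0.0341), and no other gene of the 4 lists was called in any comparison. The 18 tested genes of collagen folding and processing were spread around 0, with a median of -0.07 and 10 lower at 200 mg/kg, among them Serpinh1, the collagen chaperone, at -0.86 ± 0.26 (SE, adjusted p = 0.268), while Plod3, a lysyl hydroxylase, stood at 0.96, Ppib, a folding enzyme, at 0.22 and Loxl2, a crosslinking enzyme, at -0.14. Genes of TGF-beta signalling, the main inducer of matrix genes, came next. Of 17 tested 13 were lower at 200 mg/kg, with a median of -0.24, among them Ccn2, a matrix-inducing growth factor, at -0.72 ± 0.20 (SE, adjusted p = 0.248), the binder of latent TGF-beta Ltbp1 at -0.70 ± 0.18 (SE, adjusted p = 0.228), its relative Ltbp4 at -0.29 and the co-receptor Eng at -0.67. Of 20 matrix receptors 15 were lower at 200 mg/kg, with a median of -0.12, among them the collagen receptor Ddr2 at -0.63 ± 0.19 (SE, adjusted p = 0.275), the laminin receptor chain Itga7 at -0.84, the integrin chain Itga8 at -0.59 and the syndecan Sdc4 at -0.47. Leaving out vehicle rat 1 gave medians at 200 mg/kg of -0.54 for the other matrix proteins (20 lower), -0.01 for collagen processing (10 lower), -0.21 for TGF-beta (12 lower) and -0.10 for the receptors (11 lower).

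Markers of the cells that make matrix were set beside these genes. All 16 smooth muscle markers were lower at 200 mg/kg than in vehicle rats (median -0.62), 15 of 16 were lower at 100 mg/kg (median -0.94) and 16 of 16 were higher at 30 mg/kg (median 0.20). Their summed linear intensity was 21346 to 33915 in vehicle rats, 30788 to 37176 at 30 mg/kg, 16762 to 17084 at 100 mg/kg and 16943 to 22406 at 200 mg/kg, and no marker was blank throughout a group. Between 200 and 100 mg/kg, 14 of the 16 were higher at 200 mg/kg (median 0.25), while 50 of the 62 matrix genes were lower. Markers of enteric neurons and glia were lower in 9 of 9 genes at 200 mg/kg (median -0.63) and at 100 mg/kg (median -1.06), and 7 of 9 were higher at 200 than at 100 mg/kg. Leaving out vehicle rat 1 gave smooth muscle medians of -0.02 at 30 mg/kg (7 of 16 higher), -1.19 at 100 mg/kg and -0.90 at 200 mg/kg (15 of 16 lower at both), and neuron and glia medians of 0.05, -1.42 and -0.86.

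Fibroblast and mesenchyme markers other than the matrix genes were lower in 7 of 9 genes at 200 mg/kg against vehicle, with a median of -0.46, and stood at a median of 0.02 at 100 mg/kg. Their summed intensity was 1898 to 2358 at 200 mg/kg, against 2288 to 2777 in vehicle rats, with 1 of 11 markers blank throughout each of the 30, 100 and 200 mg/kg groups and none throughout the vehicle group. Foxf1, a factor of gut mesenchyme, differed by -0.57 ± 0.16 (SE, adjusted p = 0.25) at 200 mg/kg, and Fap, of activated fibroblasts, by -0.48 ± 0.13 (SE, adjusted p = 0.244). Fap differed from vehicle by -0.94 ± 0.13 (SE, adjusted p = 0.238) at 30 mg/kg, and rose at 100 against 30 mg/kg, by 0.96 ± 0.13 (SE, adjusted p = 0.0341). Of the 9 markers 4 were higher and 5 lower at 100 against 30 mg/kg, with a median of -0.04. Foxf1 was among the lower, at -0.50 ± 0.16 (SE, adjusted p = 0.157). Endothelial markers were lower in 8 of 10 genes at 200 mg/kg (median -0.25), while epithelial markers were higher in 11 of 14 (median 0.10). The medians at 200 mg/kg without vehicle rat 1 were -0.52 for fibroblasts, -0.25 for endothelium and 0.12 for epithelium. The part of these cell types in the matrix results was not tested. A fit with the smooth muscle score as a covariate cannot test it, because the score differed largely by dose group. Every score at 100 mg/kg lay from -0.84 to -0.82, whereas those at 30 mg/kg were 0.35 and 0.10. Within groups the score varied most through vehicle rat 1 (-0.46, beside 0.22 and 0.24 for the other vehicle rats). The values of this fit are therefore a description only. Its median over the 62 genes was -0.26 at 200 mg/kg against vehicle and -0.39 at 200 against 100 mg/kg, with no gene called. At 200 mg/kg against vehicle the fit gave -0.23 for Col1a1, -0.15 for Col1a2, -0.18 for Lum and -0.40 for Col3a1, and -0.74 for Lamb2, -0.86 for Lox and -1.24 for Bgn. In that fit 9 of the 62 genes passed an unadjusted p of 0.05 at 200 mg/kg against vehicle, beside 10.7% of all probe sets, and 26 at 200 against 100 mg/kg, beside 8.07% of all.

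**Figure D4:**
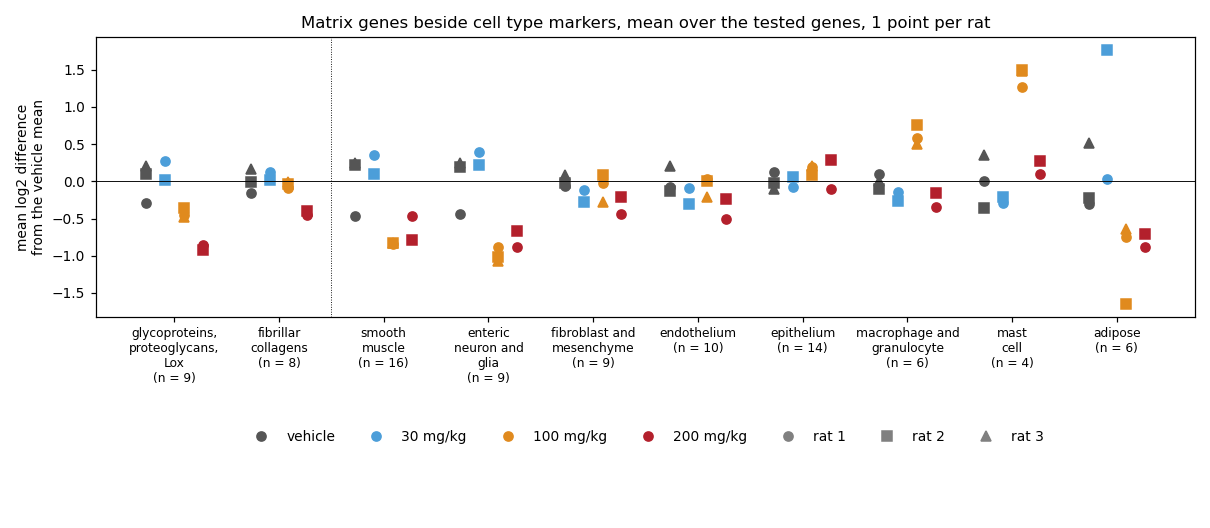
The mean log2 difference from the vehicle mean over the tested genes of each list is plotted on the y axis for each rat, with 2 groups of matrix genes left of the dotted line and cell type markers right of it. The smooth muscle list of vehicle rat 1 lies at -0.46, that of the 100 mg/kg rats between -0.84 and -0.82, and that of the 200 mg/kg rats at -0.46 (rat 1) and -0.78 (rat 2).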

How the data were processed

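Jejunum RNA of 10 rats was measured on 1-colour Affymetrix arrays, 1 per rat. The authors deposited log10 intensities per probe set, made with Rosetta Resolver per the study's methods; how probes were summarised and scaled is not given in the sources used here. A further deposited table holds fold changes that the authors computed for single treated rats over vehicle and was not used. Of 29559 probe sets, 19952 had 1 gene name, 428 several and 9179 none in the platform annotation. Groups came from the labels of each rat, and nothing was pooled.

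Values were multiplied to log2. Blanks (11.0 to 11.3% of an array) stayed missing, since their cause is not stated. The 11823 probe sets (40%) with the lowest mean were left out, which kept 17736 with a mean of at least 4.89. limma (version 3.58.1 in R 4.3.3) fitted 1 mean per dose group over all 10 arrays, with eBayes (prior SD 0.223, prior df 2.69), two-sided tests, and p values adjusted by Benjamini and Hochberg's method across every tested probe set. Called results had an adjusted p no higher than 0.05. Rats in a group are separate animals. The script was tested on simulated data. Python 3.11.15, pandas 2.3.3 and matplotlib 3.10.9 made the summaries and figures. Promoters came from RefSeq (GRCr8), with 1 start per gene.

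Every matrix gene could be named. Values of every array were due for called genes, for the brightest gene of each role and for the 2 with the smallest F test p. From a pathway list up to 4 genes, and from a cell list up to 2, were named by smallest F test p. The genes and lists were chosen with earlier results of these data known. Alternatives were another filter or none, low values at a floor, log2(value + 16), quantile normalization, array weights, only the groups compared and a trend in the prior. Others were a replicate block, the smooth muscle score as covariate, a standard t-test, every probe set of a gene, and each array left out. The counts of non-overlapping arrays and the list medians without vehicle rat 1 were chosen after seeing the data.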

Additional observations from a re-analysis of the deposited data

How the results depend on the processing

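With 2 or 3 arrays a group, the adjusted counts over 62 genes depended on single arrays and the medians less so. Array weights, which gave vehicle rat 1 the lowest weight (0.328) and vehicle rat 2 the highest (2.71), called 19 genes at 100 mg/kg against vehicle, 10 at 100 against 30 mg/kg and 15 over all dose groups, when 18.8%, 4.7% and 7.25% of all probe sets were called. They called 0 genes at 200 mg/kg against vehicle and 0 at 200 against 100 mg/kg, with 0.0452% of all probe sets called in each. At 30 mg/kg against vehicle they called 0 genes, with 0.00565% of all called. With each array left out in turn, calls ranged from 0 to 13 at 100 mg/kg against vehicle, at 200 mg/kg against vehicle and over all groups, from 0 to 9 at 100 against 30 mg/kg, and from 0 to 1 at 200 against 100 mg/kg, and the highest count came without vehicle rat 1 in all but the last, where it came without 200 mg/kg rat 2 (Col17a1). Without vehicle rat 1, 12.5%, 2.27%, 5.71% and 5.73% of all probe sets were called in those 4 tests. The 13 genes at 100 mg/kg against vehicle and the 9 at 100 against 30 mg/kg include Mmp10, whose differences are a description with no test. In counts chosen after seeing the data, leaving out vehicle rat 1 gave 11 genes with arrays below vehicle at 30 mg/kg in place of 4, 22 at 100 mg/kg in place of 9, and 6 above vehicle at 200 mg/kg in place of 3, with background shares of 17.8%, 27.8% and 26.4%. At 100 against 30 mg/kg the count was 0 with no filter, with the smooth muscle covariate and by the standard t-test. It was 2 with the lowest 60% left out, 3 with log2(value + 16), 4 with a trend in the prior and 10 with only the groups compared. In those 4 settings 1.25%, 0.778%, 1.03% and 7.08% of all probe sets were called. The smooth muscle covariate moved the median to 0.10 at 100 mg/kg against vehicle and to 0.12 at 100 against 30 mg/kg, and leaving out the lowest 60% moved that at 200 mg/kg against vehicle to -0.49. The median at 200 mg/kg against vehicle was between -0.42 and -0.26 with any array left out.

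Rat numbers did not pair the arrays, since same-numbered pairs had correlations of their deviations between -0.31 and 0.24 (median -0.01 over 13 pairs). The replicate block called 0 genes at 100 against 30 mg/kg, where 1 was called without it, and 0 in every other comparison, with medians of -0.03 at 100 mg/kg and -0.32 at 200 mg/kg against vehicle. Of 897 alternative values of 43 named differences, 836 kept direction and side of the threshold, 48 newly passed, 12 no longer passed (all Col18a1 at 100 against 30 mg/kg, adjusted p 0.0578 to 0.406) and 1 changed sign, which was Fn1 at 100 against 30 mg/kg, 0.046 with the smooth muscle covariate. The cause of these shifts was not tested. The 43 named differences include those of Mmp10, which are a description only.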

Other observations

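Immune cell markers, which are no matrix genes, had medians above vehicle at 100 mg/kg. Mast cell markers were higher than in vehicle rats in 4 of 4 tested genes there (median log2 difference 1.14) and in 3 of 4 at 200 mg/kg (median 0.23). Their summed linear intensity was 290 to 512 in vehicle rats, 263 to 277 at 30 mg/kg, 1073 to 1243 at 100 mg/kg and 324 to 418 at 200 mg/kg. The mast cell proteases Mcpt9 and Mcpt1 rose at 100 against 30 mg/kg, by 2.12 ± 0.29 (SE, adjusted p = 0.0341) and 3.43 ± 0.56 (SE, adjusted p = 0.0448) in limma. Macrophage and granulocyte markers stood at a median of 0.75 at 100 mg/kg and -0.24 at 200 mg/kg against vehicle (6 tested genes), and C1qc, a complement subunit made by macrophages, rose at 100 against 30 mg/kg by 1.33 ± 0.19 (SE, adjusted p = 0.0368). T and NK cell markers stood at a median of 0.98 at 100 mg/kg and 0.54 at 200 mg/kg (5 tested genes of 12 on the array). The summed linear intensity of the 12 was 834 to 1435 in vehicle rats and 606 to 679 at 30 mg/kg. It was 1180 to 1314 at 100 mg/kg and 1010 to 1038 at 200 mg/kg, so that both overlapped with vehicle rats. Over the 5 tested genes the mean distance from the vehicle average was 0.62 in vehicle rat 1 and 0.58 to 0.70 at 100 mg/kg. The medians at 100 mg/kg without vehicle rat 1 were 1.39 for mast cells, 0.79 for macrophages and granulocytes and 1.36 for T and NK cells.

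Adipose markers had a summed linear intensity of 658 to 1152 in vehicle rats, 801 to 2560 at 30 mg/kg, 439 to 604 at 100 mg/kg and 519 to 677 at 200 mg/kg. Hepatocyte markers had mean log2 differences from the vehicle mean of -0.80 to 1.17 in the vehicle rats and of -1.54 and 0.37 in the 200 mg/kg rats (10 tested genes), with overlap between groups. Of the endothelial markers, 10 of 10 were lower at 200 mg/kg than at 100 mg/kg, with a median of -0.34. At 100 against 30 mg/kg 6 of the 10 were higher and 4 lower, with a median of 0.12. Kdr, the main receptor of vascular endothelial growth factor, rose in limma there by 1.34 ± 0.20 (SE, adjusted p = 0.0377). Cldn5 differed by -0.96 ± 0.34 (SE, adjusted p = 0.187), opposite in sign.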
